A study of Mus musculus with 30 samples.

Results

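The diurnal difference in gene expression was examined in the hearts of old mice that drank nicotinamide riboside (old NR), 3 hearts taken at ZT10, in the day, and 3 at ZT22, at night. These were 6 of the 18 hearts and of the 30 samples in the series, and they were chosen by their labels of age, treatment and time. The old NR mice were females of 12 months, labeled C57BL6, and NR had been added to their drinking water at 3 g/L from 2 months of age. The other hearts came from female mice of the same label that received no NR, namely old H2O mice of 12 months and young mice of 2 months, again with 3 hearts at ZT10 and 3 at ZT22. All mice lived under light/dark cycles of equal length with free access to chow and water, and at ZT22 the hearts were collected under red light. Each library was made from 1 heart, and there was no group of young mice given NR, so age and NR can be told apart only among the old mice.

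NR is a form of vitamin B3 that NR kinases phosphorylate on the way to NAD+, the cofactor of respiration and the substrate of sirtuins and PARPs. The circadian clock is a transcriptional loop in which BMAL1 (gene symbol Arntl) and CLOCK bind E-boxes and switch on the period and cryptochrome genes, whose proteins then repress BMAL1 and CLOCK. In a second loop the REV-ERB receptors repress, and the ROR receptors activate, Arntl through elements called ROREs. The output factors DBP, TEF and HLF activate, and NFIL3 represses, genes that carry D-boxes. In the heart this clock is known to time metabolism, ion channel expression and growth signaling.

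Between ZT10 and ZT22 a total of 829 of 15443 tested genes differed in old NR hearts (adjusted p under 0.05 by the quasi-likelihood F-test of edgeR with Benjamini-Hochberg adjustment, fitted over all 18 hearts), of which 364 were higher and 465 lower at ZT10. This was 5.37% of the tested genes, 2.36% for higher and 3.01% for lower, and 18% had an unadjusted p under 0.05. Such genes are referred to as called, and log2 fold changes (log2FC) are positive where expression was higher at ZT10. Among protein-coding genes 347 were called higher and 448 lower. Most changes were small, with a median absolute log2FC of 0.45 over the called genes against 0.12 over all tested genes. A change of more than 2-fold was found for 39 genes that were higher and 66 that were lower, and of more than 4-fold for 8 and 10. The count depended on which heart was left out. Without ZT10 replicate 1, 2 or 3 it was 513, 546 or 455, and without ZT22 replicate 2 or 3 it was 465 or 541. Without ZT22 replicate 1 it rose to 875.

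The old NR libraries held between 4364594 and 7321880 counts, within the range of all hearts (3922137 to 7562215). ZT22 replicate 1 was the shallowest of the 6, and its summed normalized count over 8 cardiomyocyte markers was 41902 against 28755 to 33792 in the other 5 hearts. Cardiomyocyte markers were therefore abundant in each heart, as the label requires, and none of them was called. In bulk tissue, fewer cells of a type and less RNA per cell cannot be told apart. Of the markers for other cell types, the summed count of 8 atrial genes was 1229 to 1304 at ZT10 and 1552 to 2074 at ZT22, although none of the 8 was called. No atrial marker was at 0 in all 6 hearts, and in the 12 other hearts this sum ranged from 1256 to 5646. The sums for thymus and T cell genes, all low, were 39.4 to 56.3 at ZT10 and 32.2 to 37.3 at ZT22, and those for the remaining cell types on the lists overlapped between the times. Of 8 fibroblast markers Pdgfra was called (12.5%, log2FC -0.28), and of 6 tested skeletal muscle markers Myh2 was called (16.7%, log2FC -1.64). Over all tested genes 5.37% were called. Normalized counts in the text are counts scaled to the mean effective library size after TMM normalization.

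Some promoters of clock genes hold the elements named above, and those of 4 genes that hold a match are shown as examples. The E-box was found in 6 of 24 clock gene promoters (25%), and the D-box and the RORE in 1 each (4.17%). RefSeq promoters (250 bases before to 50 after a start site, GRCm38) were matched by gene for 11345 of the 15443 tested genes and for 18 of the 21 clock genes. The letters searched, on both strands, were CACGTG for the E-box, TTATGTAA or TTACGTAA for the D-box and AGGTCA or GGGTCA preceded by AA, any base and T for the RORE. Shown 5′ to 3′ in gene direction are the 250 bases before the start, with matches in capitals, for Ciart (chr3:95882229-95882478, minus strand) and Per1 (chr11:69098699-69098948, plus strand), which hold E-boxes, and for Per3 (chr4:151044666-151044915, minus strand), which holds D-boxes, and 30 bases around the RORE of Arntl (chr7:113207528-113207557, plus strand).
Ciart: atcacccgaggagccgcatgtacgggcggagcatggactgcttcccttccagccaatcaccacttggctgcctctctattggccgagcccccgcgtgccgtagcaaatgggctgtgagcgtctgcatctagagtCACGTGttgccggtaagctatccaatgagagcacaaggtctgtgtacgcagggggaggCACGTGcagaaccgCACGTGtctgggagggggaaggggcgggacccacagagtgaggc
Per1: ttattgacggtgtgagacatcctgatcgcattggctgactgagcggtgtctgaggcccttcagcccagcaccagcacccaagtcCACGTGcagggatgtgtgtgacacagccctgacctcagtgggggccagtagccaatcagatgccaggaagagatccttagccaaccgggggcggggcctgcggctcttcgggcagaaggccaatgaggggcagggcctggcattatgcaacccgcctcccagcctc
Per3: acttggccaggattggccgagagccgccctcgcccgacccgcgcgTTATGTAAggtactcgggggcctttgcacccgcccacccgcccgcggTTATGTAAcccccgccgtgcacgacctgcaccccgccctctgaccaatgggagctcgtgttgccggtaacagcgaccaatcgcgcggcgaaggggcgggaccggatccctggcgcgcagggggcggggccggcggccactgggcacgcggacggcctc
Arntl: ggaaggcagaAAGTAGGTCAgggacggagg
The Ciart promoter holds 3 E-boxes, whose first bases lie at -116, -58 and -44 from the start site, and Per1 holds 1 at -166. A second Per1 promoter (chr11:69099902-69100201) holds no match. In Per3 the D-boxes begin at -205 and -158, and the RORE of Arntl begins 28 bases after 1 of its annotated start sites. An E-box was also found for Cry1, Bhlhe41 and Tef. The E-box was present in 9.59% of the 14487 promoters of tested genes, in 14.7% of those of genes called higher at ZT10 and in 10.4% of those of genes called lower. The RORE was present in 0.31% of all, 0.27% of the higher and 1.04% of the lower promoters, which were 5 promoters, and the D-box in 0.71%, 0.82% and 0.21%. These matches describe the sequences, and no factor binding was measured.

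The activators of the clock were low at ZT10 and high at ZT22. Arntl (ENSMUSG00000055116, GRCm38 chromosome 7, 113207465 to 113314126) had normalized counts of 13.1, 26.1 and 21.0 in the hearts at ZT10 and of 509, 457 and 490 at ZT22. The times were far apart, with a log2FC of -4.55 (SE 0.15, adjusted p = 1.24e-14, edgeR), which is a 23.5-fold higher level at ZT22. Npas2, which can stand in for CLOCK as the partner of BMAL1, had 30.3, 34.3 and 31.5 at ZT10 and 105, 121 and 121 at ZT22 (log2FC -1.86, SE 0.16, adjusted p = 8.51e-08, edgeR). Clock itself ranged from 557 to 573 at ZT10 and from 866 to 1211 at ZT22 (log2FC -0.88, adjusted p = 6.36e-06, edgeR). Neither pair of ranges overlapped. Arntl2, a paralog of Arntl, was not called (log2FC -0.32, adjusted p = 0.341, edgeR).

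Genes of the period and cryptochrome repressors were all called, and 5 of the 6 were higher at ZT10. Ciart, a repressor of CLOCK and BMAL1 also known as Chrono, had 241, 242 and 220 at ZT10 against 45.6, 52.4 and 36.5 at ZT22 (log2FC 2.38, SE 0.14, adjusted p = 2.45e-10, edgeR). Per2 (chromosome 1, 91415982 to 91459324) had 690.4, 786 and 703 at ZT10 against 192, 168 and 161 at ZT22, a 4.23-fold difference (log2FC 2.08, SE 0.15, adjusted p = 3.19e-09, edgeR). Every ZT10 heart thus lay well above every ZT22 heart for both genes. Per3 changed by 1.58 (SE 0.08, adjusted p = 2.28e-11, edgeR) and Per1 by 0.86 (SE 0.13, adjusted p = 0.000243, edgeR). Between the cryptochromes the direction differed: Cry2 was higher at ZT10 (log2FC 0.47, SE 0.07), while Cry1 was lower (log2FC -0.35, SE 0.09). The call for Cry1 (adjusted p = 0.0176, edgeR) was lost without ZT10 replicate 1 or 2 or ZT22 replicate 1 or 2, with log2FCs between -0.42 and -0.30.

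Among the nuclear receptors of the second loop, both REV-ERB genes were higher at ZT10. Nr1d1 (REV-ERB alpha) had 843, 805 and 815 at ZT10 and 263, 219 and 355 at ZT22 (log2FC 1.55, SE 0.14, adjusted p = 4.02e-07, edgeR), and Nr1d2 (REV-ERB beta) changed by 1.14 (SE 0.10, adjusted p = 3.5e-07, edgeR). Of the ROR genes Rora was not called (log2FC -0.17, adjusted p = 0.414) and Rorb, with normalized counts of 16.1 to 35.9, just missed the threshold (log2FC -0.88, adjusted p = 0.0531, edgeR).

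The output factors were called without exception, 5 higher at ZT10 and 1 lower. Dbp (ENSMUSG00000059824, chromosome 7, 45705088 to 45710203) had 868, 749 and 808 at ZT10 and 73.8, 86.1 and 77.0 at ZT22, which is a 10.1-fold difference (log2FC 3.34, SE 0.13, adjusted p = 9.02e-14, edgeR). Its relatives Hlf (log2FC 1.08, SE 0.09) and Tef (log2FC 0.90, SE 0.10) moved in the same direction. Nfil3, which competes with them for D-boxes, moved in the other, from 110.0, 179 and 139 at ZT10 to 466, 326 and 347 at ZT22 (log2FC -1.37, SE 0.15, adjusted p = 5.21e-06, edgeR). Bhlhe40 and Bhlhe41, the DEC repressors that bind E-boxes, rose by 0.89 (SE 0.12) and 0.71 (SE 0.09).

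In all, 18 of the 21 tested clock genes were called, 12 higher and 6 lower at ZT10, with a median absolute log2FC of 0.90. This was 85.7%, against 5.37% of all tested genes. When any 1 heart was left out, 17 or 18 were called. The lists of clock genes were drawn up with earlier results of these hearts known, so that this count is a description. Of 17 tested kinases, ubiquitin ligases and other regulators of clock proteins, 1 was called (5.9%). This was the deubiquitinase gene Usp2 (log2FC 0.45, SE 0.07, adjusted p = 0.000198, edgeR), and the median log2FC over the 17 was -0.05.

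**Figure D1:**
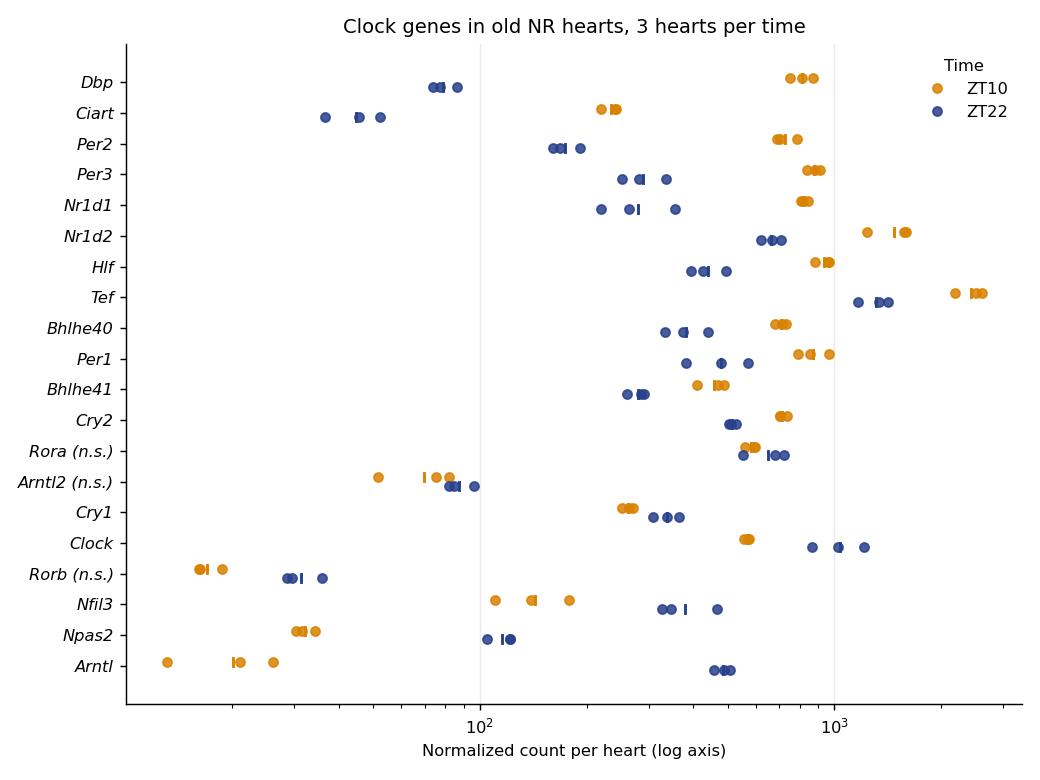
Normalized counts of 20 of the 21 clock genes in each old NR heart on a log axis, with 1 point per heart (3 at ZT10, 3 at ZT22), short lines for the means and genes ordered by log2 fold change; n.s. marks genes that were not called. Arntl lies between 13.1 and 26.1 at ZT10 and between 457 and 509 at ZT22, while Dbp shows the opposite order.

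The same time difference was compared with that in old H2O and young hearts, in order to ask whether the clock genes of old NR hearts moved more or less. Against old H2O hearts, 20 of the 21 genes had the same sign, and the absolute log2FC was larger in old NR hearts for 12 and smaller for 9, with a median difference of 0.07. The difference passed the test of an NR by time interaction for 1 of the 21, Arntl, against 0.343% of all tested genes. Its log2FC was -4.55 in old NR, -3.19 in old H2O and -5.86 in young hearts, an interaction with NR of -1.36 (SE 0.26, adjusted p = 0.0201, edgeR). In old H2O hearts the counts were 38.5, 36.5 and 53.5 at ZT10 and 335, 401 and 417 at ZT22, so that old NR hearts were lower than each old H2O heart at ZT10 and higher than each at ZT22. This call was lost without old H2O ZT10 replicate 3, old NR ZT10 replicate 1 or old NR ZT10 replicate 3, with log2 interactions between -1.61 and -1.15 over the 12 fits that left out 1 heart. Per1 had a log2FC of 0.86 in old NR and 1.35 in old H2O hearts (interaction -0.49, adjusted p = 0.35, edgeR). A gene that misses this threshold is not shown to move alike in both groups.

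Against young hearts, 18 of the 21 genes had the same sign and 15 had the smaller absolute log2FC in old NR hearts. For 10 genes the difference itself was called: Arntl, Cry1, Dbp, Hlf, Nfil3, Nr1d2, Per1, Per3, Rorb and Tef. Over all tested genes 5.98% were called (3.21% positive, 2.77% negative), and 19.6% had an unadjusted p under 0.05. In 9 of these 10 the change in old NR hearts was the smaller, and Rorb differed in sign. Per3 had a log2FC of 1.58 in old NR and 3.18 in young hearts (difference -1.60, SE 0.13, adjusted p = 1.26e-07, edgeR). Dbp had 3.34 and 4.66 (difference -1.32, adjusted p = 0.00155, edgeR), and Nfil3 -1.37 and -2.68 (difference 1.31, adjusted p = 0.00158, edgeR). Per2 was larger in old NR than in young hearts (2.08 and 1.67), a difference of 0.42 that was not called (adjusted p = 0.265, edgeR).

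**Figure D2:**
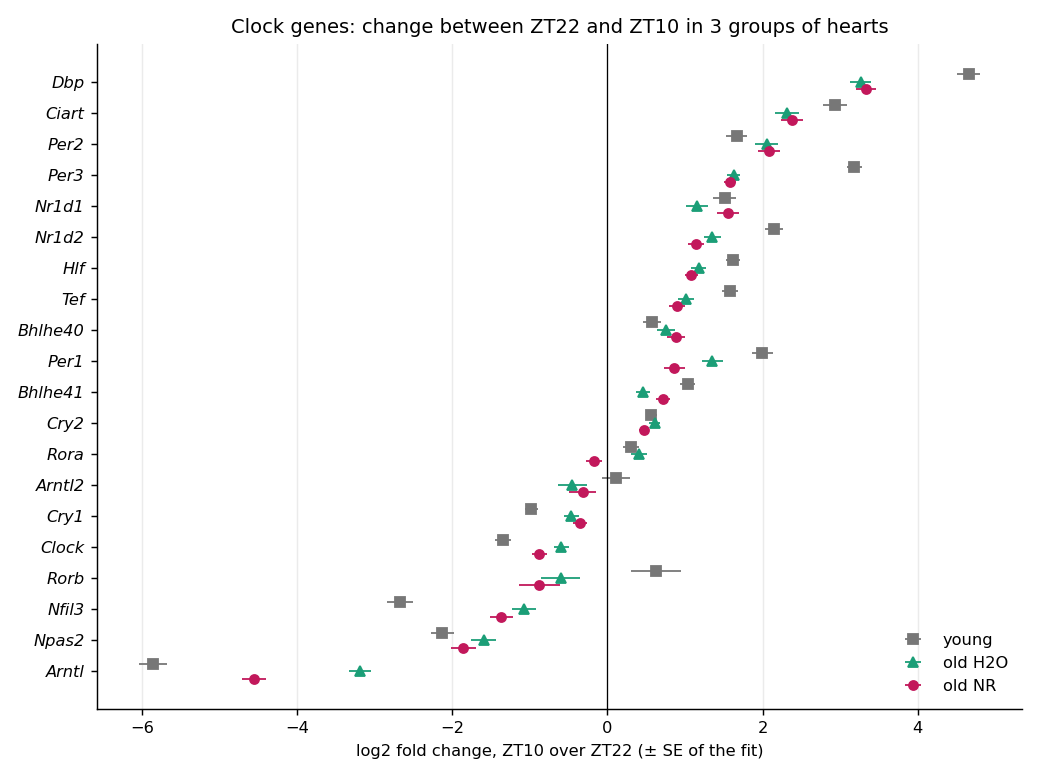
Log2 fold change between ZT10 and ZT22 of 20 of the 21 clock genes in young (squares), old H2O (triangles) and old NR hearts (circles), with bars of 1 standard error of the fit over 3 hearts per time. Arntl is spread over -5.86, -3.19 and -4.55, whereas Dbp, Per3 and Ciart of both old groups lie close together.

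Outside the clock lists, 10 genes per direction were taken by the size of their change among called genes with an average count of at least 50 and no overlap between the times. Slc41a3, a magnesium transporter gene (chromosome 6, 90604725 to 90646412), had 326, 317 and 331 at ZT10 and 1219, 960.4 and 1031 at ZT22 (log2FC -1.71, SE 0.10, adjusted p = 2.45e-10, edgeR), and it was also called in old H2O (-1.11) and young hearts (-1.72). Adam19, a membrane metalloprotease, behaved in a like manner with 272, 308 and 245 against 853, 1014 and 867 (log2FC -1.73, SE 0.10, adjusted p = 2.45e-10, edgeR). The absence of overlap was part of this choice and was found for 22.2% of all tested genes (10.4% higher and 11.8% lower at ZT10). The other genes that fell were Shisa6 (-2.08), Tmem171 (-1.88), Spon2 (-1.80), Auts2 (-1.25), Igf2bp2 (-1.16), Fzd3 (-1.15), Cubn (-1.15) and Cdkn1a (-1.15). For Cubn, with 142, 237 and 84.1 at ZT22, the call was lost without any of the ZT10 hearts or ZT22 replicate 2, with log2FCs of -1.47 to -0.63.

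The genes that rose most at ZT10 included Rtn4r, the Nogo receptor, which had 108, 131 and 99.3 against 55.0, 44.9 and 37.3 (log2FC 1.34, SE 0.24, adjusted p = 0.0014, edgeR) and changed in the other direction in young hearts (-1.07). Tspan4 (1.16), Hhipl1 (1.19), Cdc25b (1.07), the phosphatase that activates cyclin-dependent kinases, and Map3k6 (1.02) were higher at ZT10 in all 3 groups of hearts. Slc4a8 (1.07), Inka2 (1.29), Cnn1 (1.43) and Igha (1.35) were higher as well. Igha encodes an immunoglobulin heavy chain whose reads can be shared with related genes; its counts were 201, 217 and 211 at ZT10 and 138, 29.2 and 96.8 at ZT22, and its call remained in 1 of the 6 fits that left out a heart, the one without ZT22 replicate 1. Among the B cell markers Jchain was called higher and Ighm lower at ZT10, and the summed counts of that list were 253 to 302 and 183 to 296; their part in the value of Igha was not tested.

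Genes of NAD+ synthesis were examined because NR enters through this pathway. Of 15 tested members 1 was called (6.7%, against 5.37% of all tested genes), and none without ZT10 replicate 2 or 3 or ZT22 replicate 3. This was Nmrk2, the muscle form of the NR kinases (ENSMUSG00000004939, chromosome 10, 81198170 to 81202051). It had 164, 214 and 173 at ZT10 and 87.3, 146 and 125 at ZT22 in old NR hearts, without overlap (log2FC 0.58, SE 0.15, adjusted p = 0.0258, edgeR). The order was inverse in hearts of the old H2O group, 109.7, 112 and 112 at ZT10 and 190, 154 and 163 at ZT22 (log2FC -0.58, adjusted p = 0.0441, edgeR). The NR by time interaction was 1.17 (SE 0.22, adjusted p = 0.0201, edgeR). The call within old NR hearts was lost without ZT10 replicate 2 or 3 or ZT22 replicate 1 or 3 (log2FC 0.45 to 0.75), and that of the interaction without old NR ZT10 replicate 2 or old H2O ZT10 replicate 1 or 3 (1.04 to 1.34 over the 12 fits). Nampt, the rate-limiting enzyme of NAD+ salvage, had a log2FC of -0.23 (adjusted p = 0.224), Nmrk1 of -0.35 (adjusted p = 0.254) and Naprt of 0.28 (adjusted p = 0.098, edgeR). None of 24 tested NAD+ consumers and genes of nicotinamide clearance was called, with 3 at an unadjusted p under 0.05 by edgeR and 0 called by DESeq2, and the member with the lowest p was Sirt5 (log2FC 0.18, adjusted p = 0.119).

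Of 23 immediate early genes, which cells switch on within minutes of a stimulus, 5 were called and all were higher at ZT10, or 21.7% against 2.36% of all tested genes called higher. They were Ier5 (log2FC 0.92, SE 0.14), Ier3 (0.88, SE 0.12), Maff (0.88, SE 0.17), Klf2 (0.45, SE 0.09) and Jun (0.35). Ier5 had 497, 464 and 509 at ZT10 and 266, 252 and 259 at ZT22 (adjusted p = 0.000186, edgeR). The median log2FC over the list was 0.25, against -0.01 over all tested genes. The classic members Fos and Egr1 were not called (-0.30, adjusted p = 0.783, and -0.24, adjusted p = 0.486, edgeR). Of 24 ER chaperones and genes of the unfolded protein response, 5 were called higher (Sdf2l1 0.74, Ddit3 0.59, Manf 0.39, Dnajb9 0.27 and Hyou1 0.25) and 1 lower (Atf6, a sensor of ER stress, -0.38). The count for the ER list was 3 without ZT10 replicate 1, ZT10 replicate 3 or ZT22 replicate 2, and Hspa5, the main ER chaperone, was not called (0.14, adjusted p = 0.633, edgeR).

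Young hearts moved the other way in these lists. There 12 of the immediate early and 15 of the ER genes were lower at ZT10, against 7.57% of all tested genes in young hearts, and none was higher. The difference between old NR and young hearts was called and positive for 11 of 23 and 15 of 24, against 3.21% of all tested genes. Sdf2l1 had a log2FC of 0.74 in old NR and -2.13 in young hearts (difference 2.87, adjusted p = 6.09e-07, edgeR), and Manf of 0.39 and -1.24 (difference 1.62, adjusted p = 2.3e-07, edgeR). Old H2O hearts, where 1.56% of all tested genes were called higher, had 3 higher and 0 lower in each of both lists. No member had a called NR by time interaction. The 22 heat shock and cold-inducible genes held no call in old NR hearts (3 at an unadjusted p under 0.05 by edgeR, 1 called by DESeq2 on the 6 hearts alone and 2 by edgeR on the 6 alone). Of the 22, 10 differed from young hearts, 9 with a positive sign, against 5.98% of all tested genes.

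Of 19 glucocorticoid-responsive genes, which follow the daily rhythm of the adrenal hormone, 5 were higher and 2 lower at ZT10. This was 36.8%, against 5.37% of all tested genes. Cebpb, a transcription factor, had 295, 346 and 302 at ZT10 and 248, 149 and 169 at ZT22 (log2FC 0.79, SE 0.13, adjusted p = 0.000824, edgeR). Zbtb16 rose by 0.89, Map3k6 by 1.02, Nfkbia by 0.35 and Tsc22d3 (GILZ) by 0.28. The 2 lower genes were Cdkn1a, the p21 inhibitor of cyclin-dependent kinases, with 115, 246 and 190.1 against 447, 443 and 354 (log2FC -1.15, SE 0.21, adjusted p = 0.00174, edgeR), and Ddit4, an inhibitor of mTOR (-0.58, adjusted p = 0.0135). The count for this list was 4 without ZT10 replicate 3. In old H2O hearts 8 of the 19 were called, all higher, where 1.56% of all tested genes were called higher. In young hearts 11 of the 19 were higher and 1 lower, where the shares of all tested genes were 6.80% and 7.57%. A called interaction with NR was found for 1 of the 19, while 0.343% of all tested genes had one. That gene, Klf15, a regulator of cardiac lipid and amino acid use, changed by 0.13 in old NR hearts and by 0.87 in old H2O hearts (interaction -0.73, chosen after its values were seen).

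Metabolic genes contributed few calls. None of 49 nuclear-encoded subunits of the respiratory chain and ATP synthase was called, nor was any at an unadjusted p under 0.05 by edgeR or called by DESeq2, and their median log2FC was -0.03. Of 40 genes of fatty acid uptake, storage and oxidation, 1 was called (2.5%, against 5.37% of all tested genes). This was Cpt1a, a gene of mitochondrial fatty acid import (chromosome 19, 3322334 to 3385733), with 1061, 1002 and 1023 at ZT10 and 794, 692 and 870 at ZT22 (log2FC 0.39, SE 0.09, adjusted p = 0.0159, edgeR). Without NR, in old H2O hearts, it went from 733, 843 and 797 at ZT10 to 853, 959 and 1119 at ZT22 (-0.31), and in young hearts its log2FC was 0.59. The NR by time interaction was 0.70 (SE 0.14, adjusted p = 0.0201, edgeR), and it was not called without old H2O ZT10 replicate 1 or 3, old NR ZT10 replicate 1 or old NR ZT22 replicate 2 (0.60 to 0.80 over the 12 fits). The call within old NR hearts was lost without ZT10 replicate 1 or 3 or ZT22 replicate 2 (0.30 to 0.48).

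Of 42 genes of glucose uptake, glycolysis and glycogen 1 was called as well (2.4%, against 5.37% of all tested genes). Pfkfb2, the cardiac enzyme that makes the activator of phosphofructokinase (chromosome 1, 130689182 to 130729253), had 661, 678 and 693 at ZT10 and 1290, 1134 and 962 at ZT22 (log2FC -0.73, SE 0.11, adjusted p = 0.000144, edgeR). The ranges overlapped in old H2O hearts, 814 to 921 at ZT10 and 674 to 898 at ZT22, and the interaction was -0.93 (SE 0.15, adjusted p = 0.00925, edgeR). Both calls remained without any 1 heart. Of 33 genes of cholesterol and fatty acid synthesis 3 were lower at ZT10, among them Scd2 (-0.49) and Cyp51 (-0.35). That was 9.1%, against 3.01% of all tested genes called lower. Scd2 and Cyp51 lost their calls in 3 and 4 of the 6 fits without 1 heart. Sphk2 fell by 0.54 on the log2 scale and Acer2 and Slc44a2 rose by 0.55 and 0.23 among 42 genes of sphingolipid and choline metabolism. These 3 calls were 7.1% of the list, against 5.37% of all tested genes. The authors had named its pathways for genes rhythmic only in old NR hearts. For Acer2 and Slc44a2 the call remained in 1 of 6 such fits, that without ZT22 replicate 1 for Acer2 and that without ZT10 replicate 2 for Slc44a2. Among 34 antioxidant genes Nfe2l2 (NRF2) rose by 0.25 and Gsr, glutathione reductase, fell by 0.27, each with the call kept in 2 of 6 fits. Both calls together were 5.9% of that list, against 5.37% of all tested genes. No gene of heme synthesis and breakdown was called (18 tested, 2 at an unadjusted p under 0.05 by edgeR, 0 called by DESeq2).

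Signaling of insulin, FoxO, AMPK and mTOR held 6 calls among 48 tested genes, or 12.5% against 5.37% of all tested genes. The authors had named FoxO and AMPK signaling for genes rhythmic in young and old NR hearts, so this count is a description. Irs1, the insulin receptor substrate, had 176, 224 and 201 at ZT10 and 403, 374 and 460 at ZT22 (log2FC -1.03, SE 0.18, adjusted p = 0.000918, edgeR). It changed by -1.46 in young and by -0.13 in old H2O hearts, while the NR by time interaction of -0.90 was not called (adjusted p = 0.145, edgeR). Gadd45b, a stress-inducible growth arrest gene, rose by 0.94 (SE 0.17, adjusted p = 0.00132) and Eif4ebp1, a target of mTOR, by 0.30 (SE 0.06, adjusted p = 0.00395, edgeR). The other 3, Foxo1 (-0.26), Foxo3 (0.27) and Ccnd1 (0.35), had adjusted p-values between 0.0419 and 0.0442. Without ZT10 replicate 1 or 3 or ZT22 replicate 2 or 3 the list held 3 calls.

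Few ion channel genes were called. Hcn4, the pacemaker channel (chromosome 9, 58823412 to 58863175), had 124, 164 and 146 at ZT10 and 251, 310 and 250 at ZT22 (log2FC -0.90, SE 0.11, adjusted p = 2.78e-05, edgeR). It fell in old H2O hearts too (-0.62) and was not called in young hearts (0.11, adjusted p = 0.612), and the difference from young hearts was called (-1.01, adjusted p = 0.000699, edgeR). Cacna1h, a T-type calcium channel, had 207, 199 and 188 at ZT10 and 216, 394 and 305 at ZT22 (log2FC -0.66, adjusted p = 0.0153, edgeR), a call that was lost without ZT10 replicate 2 or 3 or ZT22 replicate 2 (-0.82 to -0.43). The sum of the atrial markers given above was also lower in each ZT10 heart, and its part in these values was not tested. Kcnd3, which carries the transient outward current, changed by -0.41 (SE 0.08, adjusted p = 0.0047) and Kcnj2, the inward rectifier, by -0.29 (adjusted p = 0.0393, edgeR, lost in each fit without 1 heart). Cacnb2, a calcium channel subunit, was higher at ZT10 (0.27). These were 2 of 26 potassium channels (7.7%) and 3 of 32 genes of calcium handling, sodium and pacemaker channels (9.4%), against 5.37% of all tested genes. The potassium count was 0 without ZT10 replicate 3 and 1 without any other heart, and the calcium, sodium and pacemaker count was 1 without ZT10 replicate 3 or ZT22 replicate 2 and 5 without ZT22 replicate 1. None of 29 genes of beta-adrenergic and cAMP signaling was called (9 at an unadjusted p under 0.05 by edgeR, 1 called by DESeq2 on all hearts and 2 on the 6 hearts alone), and none of 28 sarcomere genes (1 at an unadjusted p under 0.05 and 0 called by DESeq2).

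Of 33 genes of apelin signaling, 8 were called, 5 higher and 3 lower at ZT10, or 24.2% against 5.37% of all tested genes. The authors had named this pathway for genes rhythmic only in these old NR hearts, so the count is a description. Nos3, the endothelial nitric oxide synthase, rose by 0.43 (SE 0.08, adjusted p = 0.00226), Klf2, an endothelial factor induced by flow, by 0.45 and Acta2, the smooth muscle actin, by 0.36 (SE 0.07, adjusted p = 0.00434, edgeR). Hdac4 (0.37) and Notch3 (0.27) were higher as well, and Prkce (-0.39), Smad3 (-0.28) and Itpr1 (-0.26) were lower. The count was 5 without any 1 heart other than ZT22 replicate 1. In old H2O hearts, where 4.20% of all tested genes were called, 1 member was called. Acta2 had 666, 751 and 826 at ZT10 and 553, 593 and 598 at ZT22 in old NR hearts, but 689, 667 and 618 against 718, 829 and 783 in old H2O hearts (interaction 0.60, SE 0.10, adjusted p = 0.0133, edgeR, lost without old H2O ZT10 replicate 3). Acta2 and Cnn1, the latter with 60.6, 84.1 and 56.4 against 21.5, 34.4 and 17.5, are markers of smooth muscle. Of the 8 markers on that list these 2 were called, Myh11 had a log2FC of 0.43 and Rgs5 of -0.01 and were not called, and the summed counts overlapped (8703 to 10070 and 8521 to 10300.5). A change in cell content was not tested.

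In the matrix, Itga8 (0.94), an integrin subunit, and Tnxb (0.41), tenascin X, were higher at ZT10, and Lama5 (-0.75), a laminin chain, and Col5a2 (-0.34) were lower. These were 4 of 41 tested genes of collagens, laminins and integrins, or 9.8% against 5.37% of all tested genes. The count fell to 2 without ZT10 replicate 2 or ZT22 replicate 3 and to 1 without ZT22 replicate 2. In Lama5 the heart ZT22 replicate 1 stood apart, with 3601 against 2353 and 2310 in the other hearts at ZT22 and 1416 to 1853 at ZT10, and without it the log2FC was -0.51 and still called. Of 28 genes of the cell cycle and p53, Wee1, a clock-controlled kinase that delays mitosis, rose (425, 410 and 414 against 208, 269 and 253, log2FC 0.75, SE 0.11, adjusted p = 0.000215, edgeR), as did Ccnd1, and Cdkn1a fell. These 3 calls were 10.7% of the list, against 5.37% of all tested genes. Rcan1, a target of calcineurin, was the 1 call among 13 stress and hypertrophy markers (log2FC -0.40, adjusted p = 0.0241, edgeR). This was 7.7%, against 5.37% of all tested genes. The call of Rcan1 remained in 1 of the 6 fits without a heart, that without ZT22 replicate 2. Of 34 genes of autophagy and atrophy Mstn (-1.85, with normalized counts of 2.02 to 17.97), Foxo3 and Bnip3l (0.24) were called, or 8.8% against 5.37% of all tested genes. The count was 0 without ZT10 replicate 1 or 3 or ZT22 replicate 2 and 1 without ZT22 replicate 3, and Mstn was not called by DESeq2 either. The skeletal muscle marker Myh2 was also called lower at ZT10 (log2FC -1.64, adjusted p = 0.0374, edgeR). The summed counts of the skeletal muscle markers overlapped (2203 to 2597 at ZT10 and 2134 to 2794 at ZT22). A link to the value of Mstn was not tested. No interferon response gene was called (27 tested, 3 at an unadjusted p under 0.05 by edgeR, 0 called by DESeq2).

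**Figure D3:**
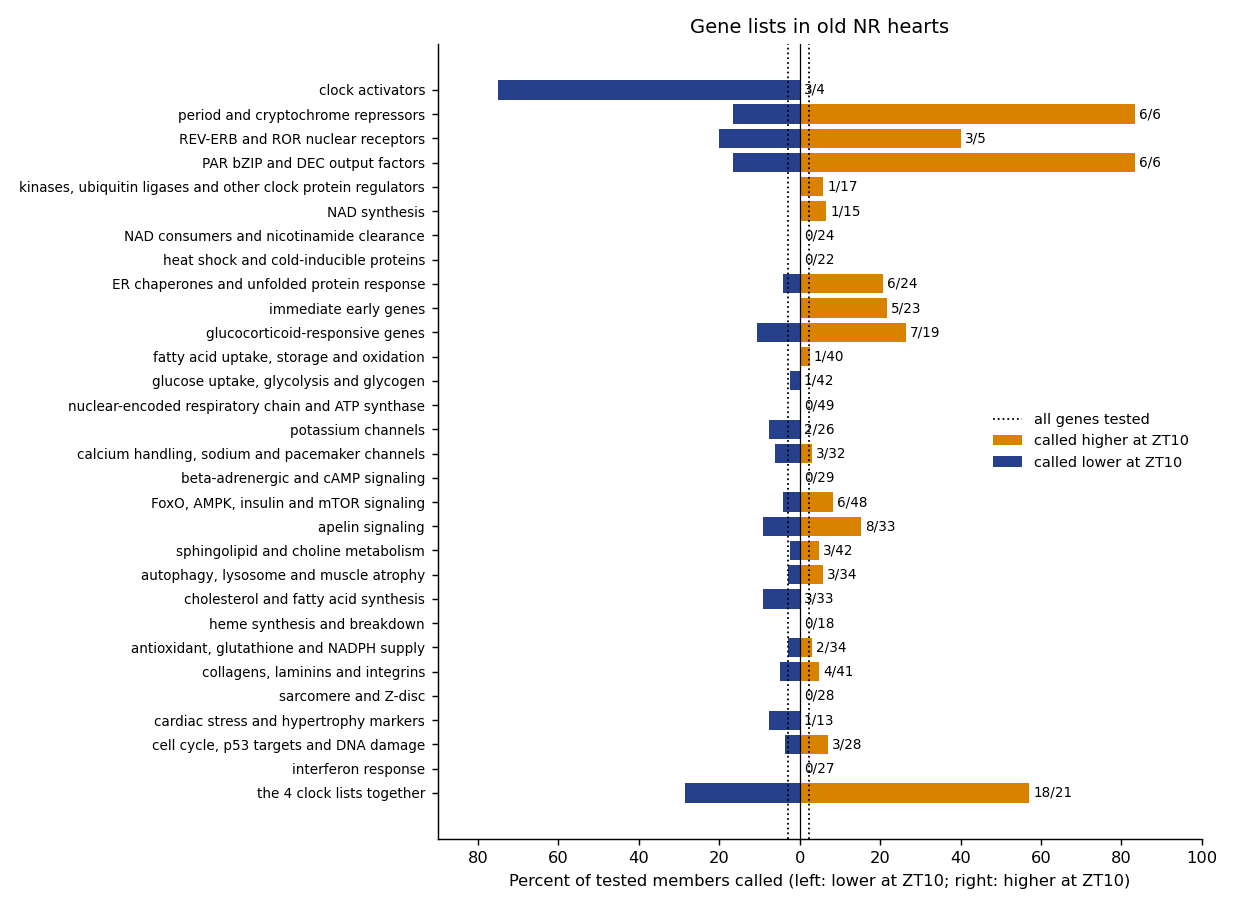
Percent of the tested members of each gene list that were called lower (bars to the left) or higher (bars to the right) at ZT10 in old NR hearts, with the number called over the number tested and dotted lines at the percentages over all tested genes, 3.01% and 2.36%. The clock lists extend furthest, followed by the glucocorticoid, ER, apelin and immediate early lists.

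How far the called genes were shared with the other groups was then asked. Of the 829 genes, 240 were also called in old H2O hearts, where 649 genes or 4.20% were called (1.56% higher, 2.64% lower), which is 29.0% of the old NR genes and 37.0% of the old H2O genes. All but 4 of the 240 had the same sign. With young hearts, where 2219 genes or 14.4% were called (6.80% higher, 7.57% lower), 352 were shared, or 42.5% of the old NR and 15.9% of the young genes, and 298 had the same sign. A total of 149 genes were called in all 3 groups, and 203 were called in old NR and young but not in old H2O hearts. Of those 203, 154 had the same sign in old NR and young hearts and 163 had the same sign in old NR and old H2O hearts, and for 10 the NR by time interaction was called. Over all 829 genes, the median log2FC taken in the direction of old NR hearts was 0.23 in old H2O and 0.18 in young hearts, beside the 0.45 by which they were chosen.

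A further 386 genes were called in old NR hearts and in neither other group, of which 198 had an unadjusted p over 0.05 in both. The difference from old H2O hearts was itself called for 12 of the 386, so that most of them are not shown to differ. By size of change, among those of the 198 with an average count of at least 50, the genes higher at ZT10 were led by Cnn1 and Igha, described above, Hic1 (0.87, SE 0.11), Snhg6 (0.82), Zbtb7c (0.81, SE 0.16) and Tmem200b (0.79, SE 0.16). Those lower at ZT10, with the same limit on the count, were led by Cubn, B3galt2 (-0.96), Irx2 (-0.93), Drd2 (-0.87), Foxp2 (-0.86) and Gm31520 (-0.86). Hic1, a transcriptional repressor, had 333, 340.3 and 308 at ZT10 and 179, 159 and 199 at ZT22 (adjusted p = 4.14e-05, edgeR), whereas its log2FC was 0.06 in old H2O and -0.19 in young hearts. Irx2, a homeobox factor of the conduction system, had 78.7, 118 and 105 at ZT10 and 216, 213 and 153 at ZT22 (adjusted p = 0.00188, edgeR). Drd2, the dopamine D2 receptor, did overlap between the times, with 31.3, 32.6 and 33.4 at ZT10 and 29.5, 76.4 and 64.3 at ZT22 (adjusted p = 0.0445, edgeR), and the calls of Drd2, Gm31520 and Snhg6 remained in 1 of 6 fits without a heart, in each case that without ZT22 replicate 1.

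**Figure D4:**
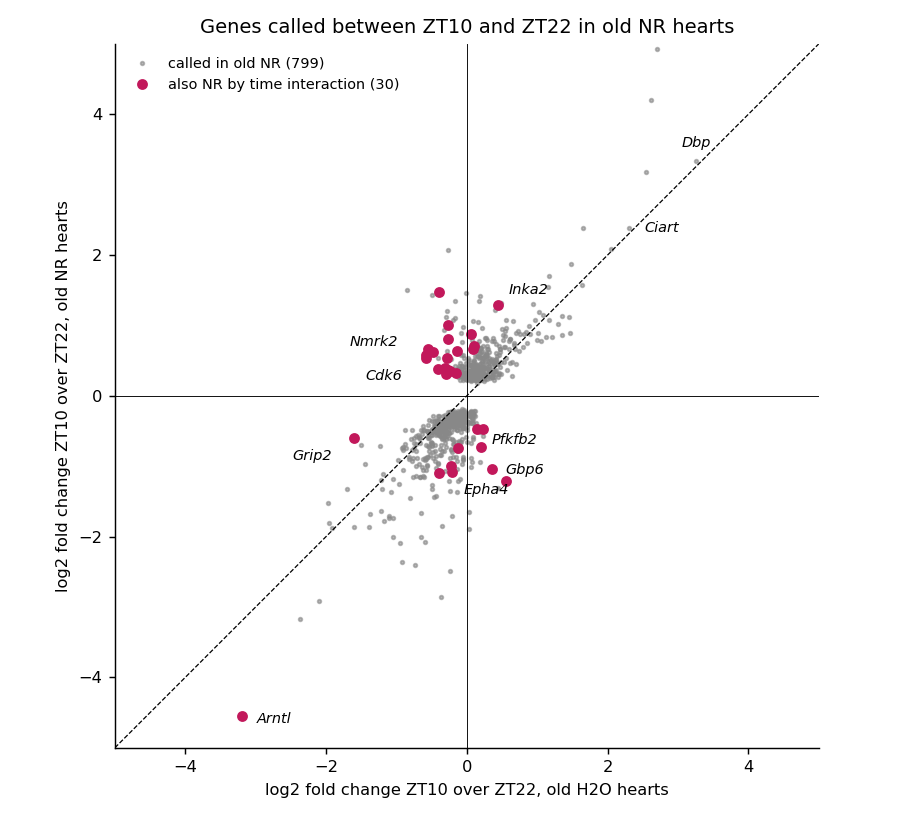
Log2 fold change between ZT10 and ZT22 in old H2O hearts (x axis) and old NR hearts (y axis) for the 829 genes called in old NR hearts, with the 30 that also had an NR by time interaction as large points and a dashed line of equal change. Most points share the sign of both axes, and the large points lie apart from the dashed line, with Arntl at -3.19 and -4.55.

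The NR by time interaction, which asks whether the time difference itself differed between old NR and old H2O hearts, was called for 53 genes or 0.343%, of which 36 were positive and 17 negative (0.233% and 0.110%), while 10.3% of all tested genes had an unadjusted p under 0.05. Of these 53, 30 were also called in old NR hearts, a set that shares the old NR hearts with the interaction. In old H2O hearts 20 of the 30 had a log2FC of the opposite sign, and for 4 of these that change was called too. The count of 53 fell to 26 and 15 without old H2O ZT10 replicate 1 and 3, to 22, 31 and 29 without old NR ZT10 replicate 1, 2 and 3, and to 35 without old NR ZT22 replicate 2.

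The interactions described next are of genes that were also called in old NR hearts and had an average count of at least 50. Cdk6, a kinase of the G1 phase (chromosome 5, 3341485 to 3531008), had 364, 435 and 329 at ZT10 and 240.4, 269 and 263 at ZT22 in old NR hearts, but 210.1, 279 and 242 at ZT10 and 372, 351 and 373 at ZT22 in old H2O hearts. The times did not overlap in either group, and their order was opposite (log2FC 0.54 and -0.57, interaction 1.11, SE 0.16, adjusted p = 0.00562, edgeR). Il33, an alarmin cytokine, had 142, 135 and 141 against 106, 77.8 and 92.1 in old NR hearts and 102, 114 and 101.1 against 152, 165 and 129 in old H2O hearts (interaction 1.098, SE 0.20, adjusted p = 0.0155, edgeR). In young hearts Il33 was higher at ZT10 as well (log2FC 1.14). Inka2, an inhibitor of the kinase PAK4, was higher at ZT10 in both old groups, but by 1.29 in old NR and 0.44 in old H2O hearts (interaction 0.85, SE 0.15, adjusted p = 0.0155, edgeR), and was not called in young hearts (-0.01, adjusted p = 0.969, edgeR). Grip2, a scaffold protein of glutamate receptors, was instead lower at ZT10 in both, by -0.61 in old NR and -1.61 in old H2O hearts (interaction 1.00, SE 0.16, adjusted p = 0.00897, edgeR).

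Atcay (interaction 1.21, adjusted p = 0.0295) and Zbtb7c (1.08, adjusted p = 0.0285, edgeR) were less stable, with calls in 5 and 1 of the 12 fits that left out a heart. Atcay shares its locus with the transcript Atcayos, which had an interaction of 0.58, and how reads were assigned by strand is not given in the sources used here. Atcay (81204508 to 81230833) and Nmrk2 (81198170 to 81202051) also lie near each other on the minus strand of chromosome 10. Their log2FCs were 0.67 and 0.58 in old NR and -0.54 and -0.58 in old H2O hearts. Whether these 2 calls are linked was not tested. Hic1 had an interaction of 0.82 (adjusted p = 0.0239, edgeR) that was called in 6 of the 12 fits.

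Among negative interactions, Epha4, an ephrin receptor (chromosome 1, 77367185 to 77515088), had 613, 582 and 608 at ZT10 and 1323, 1264 and 1230.2 at ZT22 in old NR hearts and 844, 750.4 and 907 against 1012, 1001 and 873 in old H2O hearts (interaction -0.88, SE 0.15, adjusted p = 0.0109, edgeR). Its log2FC was -1.08 in old NR, -0.20 in old H2O and -0.72 in young hearts. Gbp6, a guanylate binding protein induced by interferon, was lower at ZT10 in old NR hearts (54.5, 74.3 and 67.8 against 195, 110.0 and 117) and in young hearts (-0.99), with a log2FC of 0.36 in old H2O hearts (interaction -1.40, SE 0.28, adjusted p = 0.0243, edgeR, called in 6 of the 12 fits). Ndnf (interaction -0.77, adjusted p = 0.0246) and Pnrc1 (-0.70, adjusted p = 0.0172, edgeR) were called in 5 and 9 of the 12 fits. The interactions of Cdk6, Epha4, Grip2, Inka2 and Pfkfb2 were called in each of the 12.

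**Figure D5:**
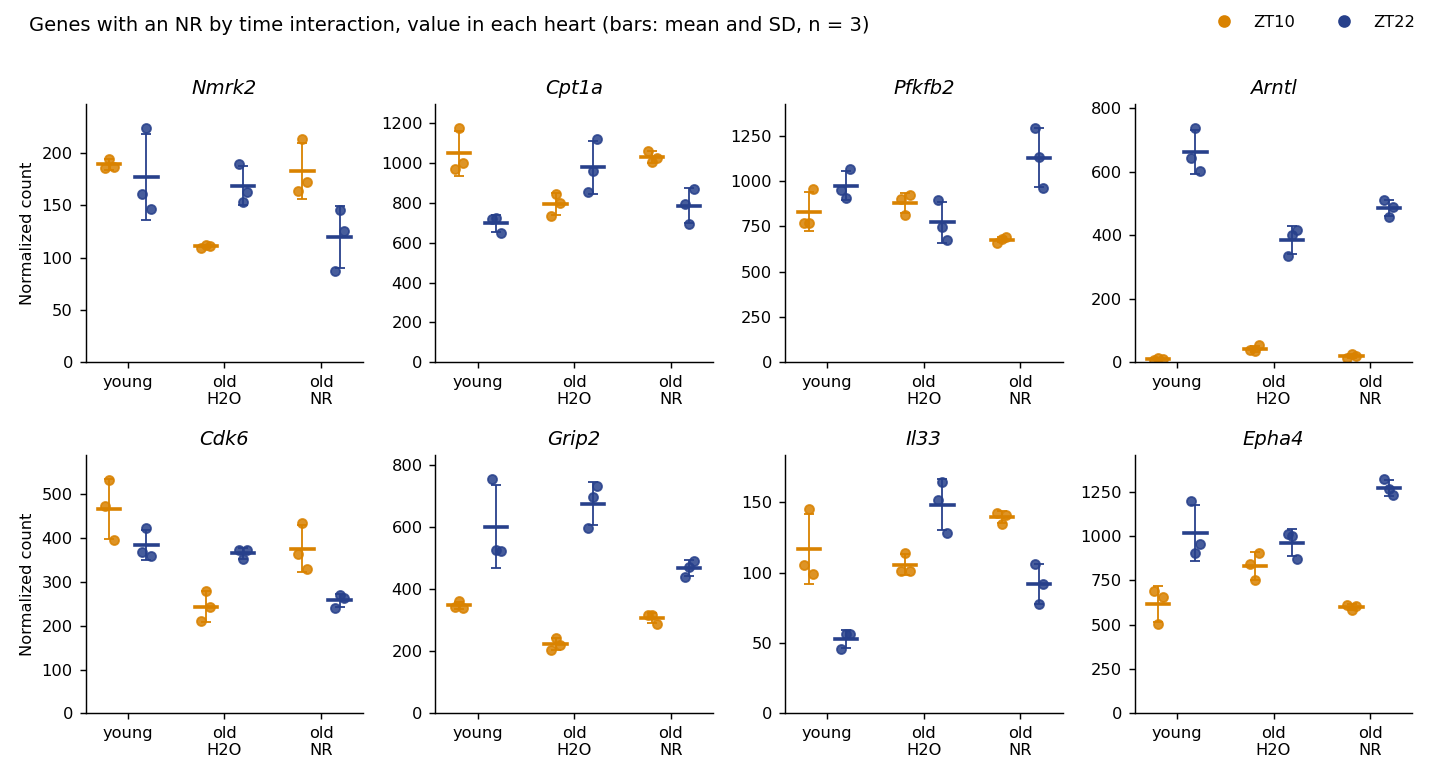
Normalized counts of 8 genes with an NR by time interaction in each young, old H2O and old NR heart at ZT10 and ZT22, with 1 point per heart and bars for the mean and SD (n = 3). For Nmrk2, Cpt1a, Cdk6 and Il33 the order of the times is opposite in old H2O and old NR hearts, and for Arntl, Grip2 and Epha4 it is the same.

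Abundant transcripts were among the called genes as well. The 5 called genes with the highest average counts were Lama5, given above, Clasp1, which binds microtubule ends (log2FC -0.40, SE 0.11, adjusted p = 0.0416), Mylk4, a myosin light chain kinase of muscle (0.52, SE 0.11, adjusted p = 0.00465), Gpcpd1, which releases choline from glycerophosphocholine (0.41, SE 0.10, adjusted p = 0.0131), and Tead1, a transcription factor of the Hippo pathway (-0.29, SE 0.08, adjusted p = 0.0291, edgeR). Mylk4 had 3802, 3155 and 3743 at ZT10 and 2903, 2341 and 2255 at ZT22, kept its call without any 1 heart, and was also higher at ZT10 in old H2O (0.39) and young hearts (0.60). Clasp1 and Tead1 kept their calls in 0 of the 6 fits.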

How the data were processed

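Hearts were sequenced as single-end mRNA libraries. Per the methods, the authors trimmed reads with Trimmomatic 0.39, aligned them to mm10 with STAR 2.7.10a, removed duplicates with Picard 3.0.0 and also multi-mapping, ribosomal and mitochondrial reads, and counted reads per gene with featureCounts 2.0.4; removing duplicates of single-end reads can lower counts of abundant genes. The deposited table of whole-number counts was analysed. It is named as normalized, but its totals per heart differ. The second table deposited by the authors holds those counts divided by size factors and rounded, treated as a score, and was used only to check this and for gene symbols. Data of HL-1 cells, a cardiomyocyte line, were not used here.

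Each library is 1 mouse, and samples were grouped by their labels. edgeR 4.0.16 (R 4.3.3) was used with TMM normalization and quasi-likelihood F-tests on 1 fit of all 18 hearts, over genes with an average count above 5 (15443 of 20764 listed), with Benjamini-Hochberg adjustment and a threshold of 0.05. Standard errors were the absolute log2 fold change over the square root of F. The depth of 3922137 to 7562215 counts and 3 hearts per group limit the precision. In simulated data, log2 changes of 1 were given to 200 genes with an average count of at least 50. Every gene had the trended spread, without outlying hearts. The fit recovered 199 of the 200 for the time contrast with 9 false calls, and 187 of 200 with 11 false calls for the interaction. Recovery of smaller changes, such as the median of 0.45 over the called genes, or at lower counts was not simulated. Coordinates are from GENCODE M21 (GRCm38).

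Named genes were all clock genes, up to 4 called members per list (the lowest p where none was called) and the 5 most abundant called genes. Among genes called in old NR hearts with an average count of at least 50, they were also, per direction, the 10 most changed without overlap, the 6 largest called interactions, and the 6 largest changes with an unadjusted p over 0.05 in both other groups. Others are members of the same lists or markers, and Klf15 was named after its values were seen. The members and lists were chosen with earlier results of these data known. Alternatives were DESeq2 1.42.0 on all hearts or on the groups compared, its size factors, other filters, a library size covariate, a replicate block, only the groups compared, and leaving out each heart. A few named genes are not reported here, although counts include them. Figures were drawn with matplotlib 3.10.9.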

Additional observations from a re-analysis of the deposited data

Results flagged for a closer look

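The time difference was tested for being unequal between groups. Of the named genes, 16 passed for old NR against old H2O hearts (log2 change at ZT10 over ZT22 in old NR minus that in old H2O, edgeR, adjusted p under 0.05). The difference was positive for Atcay (1.2117), Nmrk2 (1.1665), Cdk6 (1.1150), Il33 (1.0979), Zbtb7c (1.0800), Grip2 (1.0001), Inka2 (0.8503), Hic1 (0.8167), Cpt1a (0.7030) and Acta2 (0.6036). It was negative for Gbp6 (-1.3994), Arntl (-1.3607), Pfkfb2 (-0.9267), Epha4 (-0.8766), Ndnf (-0.7710) and Pnrc1 (-0.6960).

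Of the clock genes, 10 passed the same test for old NR against young hearts. The log2 difference was -1.6032 for Per3, -1.5055 for Rorb, -1.3199 for Dbp, -1.1301 for Per1, -1.0089 for Nr1d2, -0.6868 for Tef and -0.5366 for Hlf, and 1.3079 for Arntl, 1.3064 for Nfil3 and 0.6265 for Cry1. Groups held 3 hearts, so single hearts were not tested as outliers. The causes of these differences were not tested.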

How the results depend on the processing

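Of 94 recomputed counts, 75 stayed within 1.5 times the reported one, and no named gene that was called changed direction. Ndufs3, which was not called (log2 fold change -0.07), was at 0.02 without old NR ZT22 replicate 1. DESeq2 on only the groups compared called 491 genes in old NR hearts (206 higher at ZT10), of which 146 were shared with old H2O and 212 with young hearts, and DESeq2 on all hearts called 651. With log2 library size as a covariate, 1222 genes were called in old NR hearts and 1338 differed from young hearts. In that fit the NR by time interaction was called for 96 genes and 546 old NR genes were shared with young hearts. Leaving out 1 heart gave 455 to 875 called genes in old NR hearts, 15 to 78 interactions with NR, 587 to 1066 genes that differed from young hearts, 163 to 264 shared with old H2O and 226 to 368 shared with young hearts. The lowest of these came without old NR ZT10 replicate 3, old H2O ZT10 replicate 3, young ZT10 replicate 3, old H2O ZT10 replicate 1 and old NR ZT10 replicate 3, in that order. Without old NR ZT22 replicate 2, 603 genes differed from young hearts. Fits without a heart have fewer samples, and other causes were not tested.

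The labels do not say whether hearts with the same replicate number are related. The deviations of same-numbered ZT10 and ZT22 old NR hearts correlated at 0.0681, 0.123 and -0.0571, and of differently numbered ones at -0.15 to 0.0928. For old NR and old H2O hearts at ZT22 the same-numbered values were 0.163, 0.0371 and 0.0218, and the others -0.172 to 0.175. Whether replicate numbers mark a shared batch was not tested. With a replicate block 964 genes were called in old NR hearts, 77 interactions with NR and 1070 differences from young hearts, and 290 and 415 genes were shared with old H2O and young hearts.

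Of 103 named genes called in old NR hearts, 64 kept the call in every fit without 1 heart and 81 in every other alternative. Of the 16 named interactions these were 5 and 14. Of 420 recomputed list counts, 98 moved by over 1.5 times. With 3 hearts per group and these depths, small changes and low counts were not resolved.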
